A study of Mus musculus with 11 samples.

Results

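The genes described here are the core autophagy machinery of the mouse and the MiT/TFE transcription factors TFEB, TFE3 and MITF. They were taken by symbol from a table of RNA-seq read counts for 15022 genes: every protein-coding gene whose symbol begins with Atg and a digit, Map1lc3, Gabarap or Wipi and a digit, the kinases Ulk1, Ulk2 and Ulk3, and 15 further genes (Becn1, Rb1cc1, Pik3c3, Pik3r4, Ambra1, Uvrag, Sqstm1, Nbr1, Optn, Tax1bp1, Calcoco1, Tfeb, Tfe3, Mitf and Epg5). The choice gave 44 genes. Its rule used no measured value, but it was made with earlier results of these data known. Of these, 43 passed a filter on low counts and were tested. The exception, Atg4a-ps, is annotated as protein-coding but carries a pseudogene name, and had 41 reads in all libraries together.

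NIH-3T3, an established line of mouse embryonic fibroblasts with the wild-type label, received 10 µM AS1411 or 10 µM of a control DNA oligonucleotide. Cells were sampled after 24 h (3 libraries of each) or 48 h (2 libraries with AS1411 and 3 with the control oligo), and polyadenylated RNA was sequenced. The study profiled changes of gene expression with AS1411. Every library comes from cells that received an oligonucleotide, so each AS1411 effect below is a difference between the oligonucleotides. A rise or fall at 24 h or at 48 h is that of AS1411 relative to the control oligo. Changes over time are within cells of the same oligonucleotide. Both oligonucleotides are 26 nucleotides long. They are shown because every AS1411 effect below is a difference between cells given these sequences. Guanine is in capitals in AS1411 and cytosine is in capitals in the control:
AS1411: GGtGGtGGtGGttGtGGtGGtGGtGG
control: CCtCCtCCtCCttCtCCtCCtCCtCC
AS1411 thus holds 17 guanines and 9 thymines, and the control holds 17 cytosines in their place. Guanine-rich DNA of this kind can fold into G-quadruplexes, and AS1411 is an aptamer for nucleolin, which is plentiful in the nucleolus.

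Autophagy encloses cytoplasm in a double membrane, the autophagosome, which then fuses with the lysosome. The ULK kinase complex starts the process, a PI3-kinase complex marks the membrane with a phospholipid, ATG9, ATG2 and WIPI proteins supply and receive lipid, and the conjugation enzymes attach ATG8 proteins (the LC3 and GABARAP families) to it. Cargo receptors bind both ubiquitin-marked or otherwise selected cargo and ATG8 proteins. MiT/TFE factors activate autophagy and lysosome genes when the kinase mTOR, which also holds ULK1 inactive, does not keep them in the cytoplasm.

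Total counts per library ran from 13541951 to 18784497. The nucleolin transcript Ncl was at 2296 to 2411 CPM (counts scaled to the size of the library) with AS1411 and 3412 to 3535 with the control oligo at 24 h, and at 1404 to 1652 and 2714 to 3294 at 48 h. Libraries of a group differed by more than sampling noise (chi-square per gene 1.51 to 11.5), and control replicate 2 at 48 h stood apart (8.53 and 11.5 against the other libraries of its group, which differed by 4.53). Of 12 fibroblast markers 10 were tested: 3 fell at 24 h and 8 at 48 h (30% and 80%, against 16.7% and 28.5% of all genes tested). Their summed level at 48 h was 5926 to 6616 CPM with AS1411 and 9019 to 10310 with the control oligo. Of 8 leukocyte markers 3 were in the table, at 12.7 to 13.6 CPM in sum with AS1411 and 3.92 to 4.52 with the control oligo at 48 h, nearly all of it Cd68. Spi1 and Csf1r stayed below 0.6 CPM in every library. Of 7 epithelial markers 1 was in the table, Krt14, at no more than 0.399 CPM in any library, and 4 of 6 endothelial markers summed to 0.604 to 1.98 CPM. Mitochondrially encoded transcripts took 1.29 to 1.71% of counts with AS1411 and 0.713 to 0.897% with the control oligo at 24 h, and 1.07 to 1.19% and 0.863 to 1.22% at 48 h. The part of these shifts in the results below was not tested. In bulk RNA, fewer cells of a kind and less RNA per cell cannot be told apart.

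After 24 h with AS1411, the autophagy genes that changed were higher, with 1 exception, and only Atg9b by a log2 fold change of at least 0.5. Of 43 tested members 19 rose, from Gabarapl1 (log2 fold change 0.18 ± 0.05, SE) to Atg9b (0.89 ± 0.24), and 1 fell, Tfe3 (-0.24 ± 0.04). Among all 13040 genes tested, 13.1% rose and 16.7% fell (edgeR quasi-likelihood test, adjusted p under 0.05). The median log2 fold change was 0.17 over the members and 0.01 over all genes tested. In 22 members every AS1411 library lay above every control library, and in 4 every one lay below. The same held for 23.5% and 26.3% of all genes. The 23 members not past the threshold lay between -0.17 and 0.29. Without control replicate 2 or 3 of 48 h, 2 members fell at 24 h.

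After 48 h, 22 members rose and 6 fell, and the rises were larger. Among all genes, 29.4% rose and 28.5% fell at this time. The member median was 0.21 and that of all genes 0.01. Atg9b rose 5.13-fold and Atg14 rose 2.29-fold, and a further 10 of the 22 rose by a log2 fold change of at least 0.5 (Nbr1, Atg12, Optn, Wipi1, Sqstm1, Map1lc3b, Ulk2, Calcoco1, Atg16l2 and Atg2a). Atg10, Tfeb, Atg5, Tfe3, Atg2b and Gabarap fell, and the number that fell was 3 without AS1411 replicate 2 or control replicate 3 of that time. All AS1411 libraries lay above all control libraries in 25 members and below them in 8, against 35.1% and 32.9% of all genes. With library sizes left unscaled, which put the median log2 fold change over all tested genes at 0.16, 29 members rose and 2 fell. At both times 16 members rose (9.69% of all genes did) and 1 fell (13.3% of all genes did). Atg4c, Atg7 and Pik3r4 passed the threshold upward at 24 h alone, and Atg16l1, Epg5, Gabarapl2, Optn, Sqstm1 and Wipi2 at 48 h alone. The members not past the threshold at either time were Ambra1, Atg101, Atg3, Atg4a, Atg4b, Atg4d, Atg9a, Mitf, Pik3c3, Tax1bp1, Ulk3 and Uvrag.

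**Figure D1:**
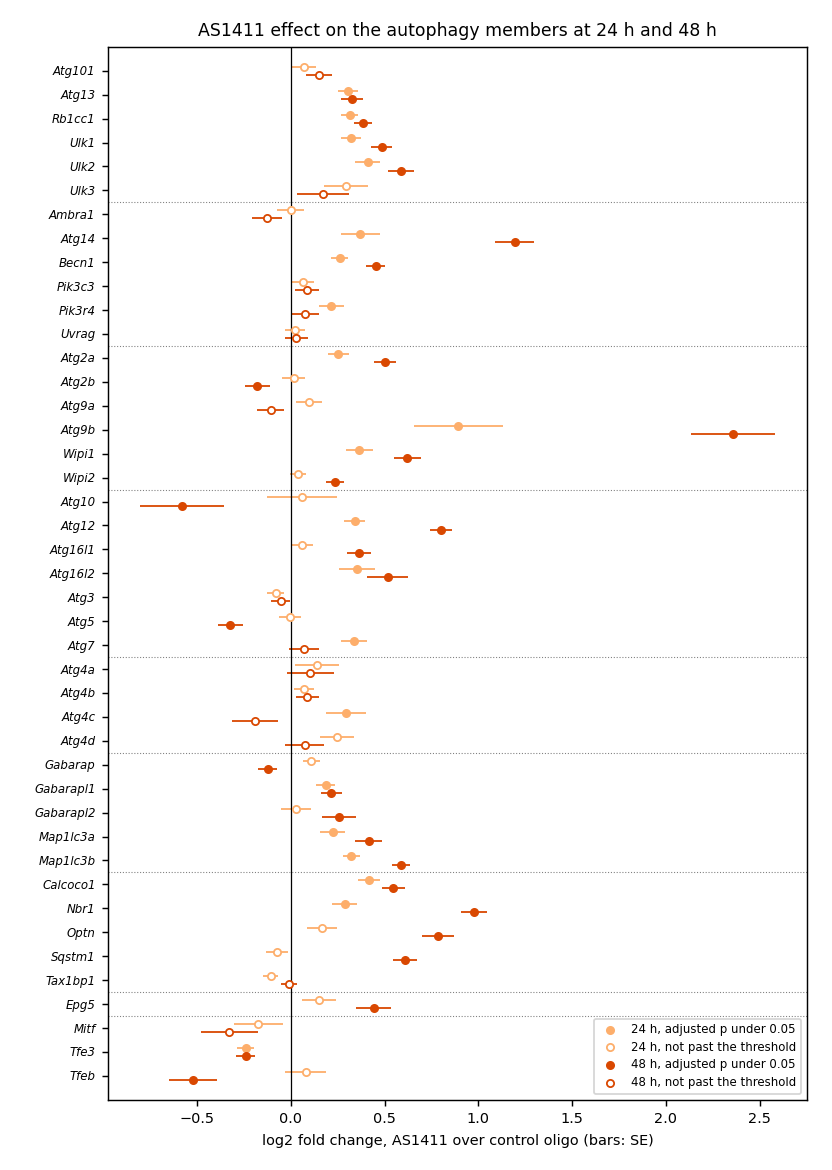
Log2 fold change of AS1411 over control oligo for the 43 tested members at 24 h (light) and 48 h (dark), with SE bars; filled points passed an adjusted p under 0.05 and dotted lines separate the roles. Filled points lie right of 0 for 19 members at 24 h and 22 at 48 h, with Atg9b (2.36) and Atg14 (1.19) farthest out, and left of 0 for 1 and 6.

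**Figure D2:**
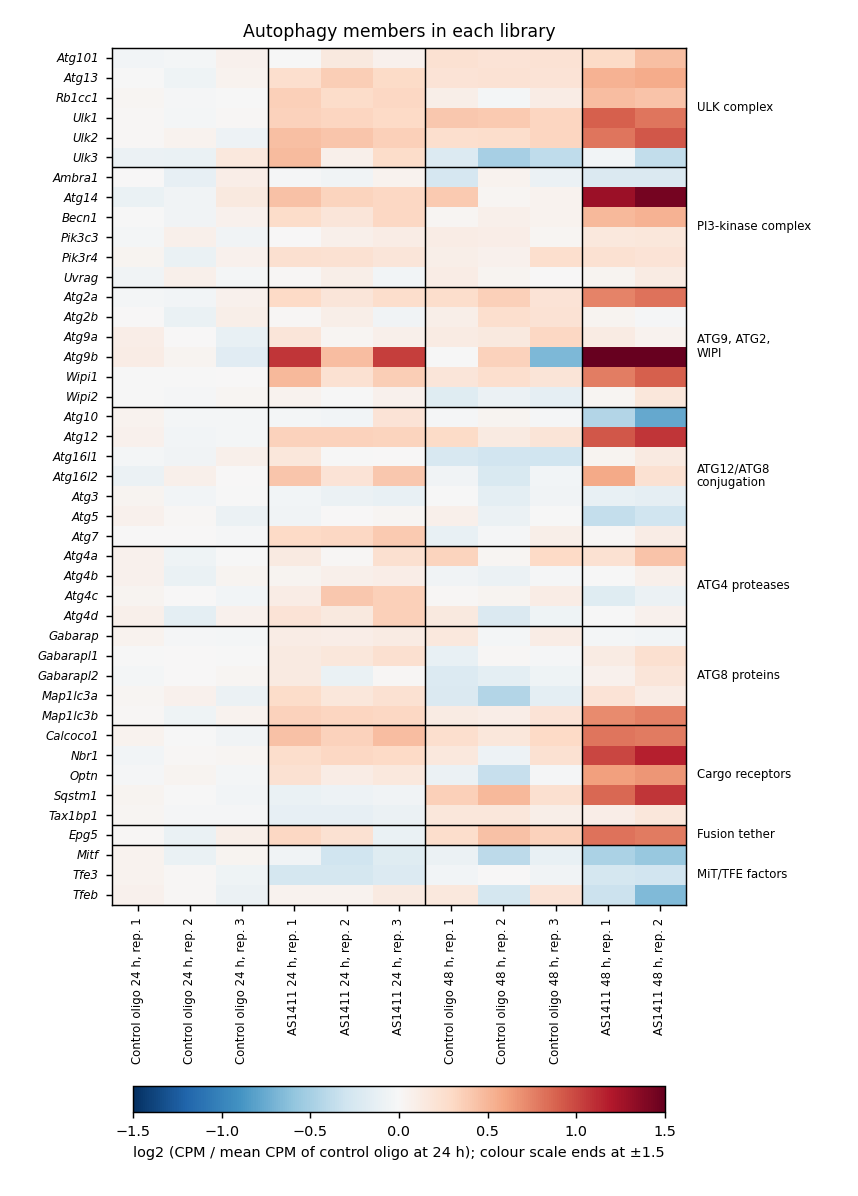
Log2 ratio of each library's CPM to the mean of the control libraries at 24 h, for 43 members (rows, by role) in 11 libraries (columns); the colour scale ends at ±1.5. Atg9b, Atg14, Nbr1, Atg12 and Sqstm1 are darkest red in the AS1411 libraries at 48 h, and Atg10, Tfeb, Mitf and Atg5 are among those blue there.

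Of the 6 genes grouped here with the ULK complex, 4 rose at both times, as did 9.69% of all genes tested. They were the kinases Ulk1 and Ulk2, and the scaffolds Atg13 and Rb1cc1 (which encodes FIP200). Ulk2 (chromosome 11, 61775649 to 61855073, GRCm38) was at 36.0, 35.1 and 33.7 CPM with AS1411 and 26.6, 27.2 and 24.95 with the control oligo at 24 h. Its level at 48 h was 45.6 and 50.2 CPM against 31.2, 31.7 and 32.8. The groups did not overlap at either time, and the rises were 0.41 ± 0.07 (adjusted p = 0.000153) and 0.59 ± 0.07 (adjusted p = 7.39e-07). Ulk1, whose kinase phosphorylates several other members of the pathway, rose by 0.32 ± 0.05 and 0.49 ± 0.06, from 48.4 to 51.2 CPM in control libraries to 67.6 to 72.5 with AS1411 at 48 h. Atg13 rose by 0.31 ± 0.05 and 0.33 ± 0.06, and Rb1cc1 by 0.31 ± 0.04 and 0.39 ± 0.05. Atg101, which stabilises ATG13, was at 0.07 ± 0.07 (adjusted p = 0.466) and 0.15 ± 0.07 (adjusted p = 0.0756). Ulk3, a related kinase that was grouped with the genes of the complex, was at 0.29 ± 0.12 (adjusted p = 0.0691) and 0.17 ± 0.14 (adjusted p = 0.303).

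Within the PI3-kinase complex, Atg14 and Becn1 rose at both times, Pik3r4 rose at 24 h and the other genes did not pass at either time. ATG14 directs the lipid kinase complex to the site where autophagosomes form. Atg14 (chromosome 14, 47540893 to 47570649) was at 17.7, 16.4 and 16.2 CPM with AS1411 and 12.1, 12.5 and 14.4 with the control oligo at 24 h. After 48 h Atg14 stood at 31.5 and 35.1 CPM against 17.1, 13.2 and 13.5. AS1411 libraries were highest at each time, most clearly at 48 h. Its log2 fold change was 0.37 ± 0.11 (adjusted p = 0.0127) at 24 h and 1.19 ± 0.11 (adjusted p = 2.33e-08) at 48 h. The 24 h call of Atg14 was lost without AS1411 replicate 1 (0.33, adjusted p = 0.0625), control replicate 1 (0.33, adjusted p = 0.0639) or control replicate 2 (0.35, adjusted p = 0.0531). Becn1, which encodes Beclin 1, rose by 0.26 ± 0.05 and 0.45 ± 0.05. In the annotation, 43.9% of its exon length is shared with Cntd1 on the opposite strand, which had 89 reads in all against 18723 for Becn1. UVRAG replaces ATG14 in a second form of the complex, and Uvrag was at 0.02 ± 0.05 and 0.03 ± 0.06. The catalytic subunit Pik3c3 (adjusted p = 0.457 and 0.263) and the regulator Ambra1 (adjusted p = 0.991 and 0.183) did not pass at either time. Pik3r4, the regulatory kinase-like subunit, rose by 0.22 ± 0.07 at 24 h and was at 0.07 ± 0.08 at 48 h. Without AS1411 replicate 1 (0.20, adjusted p = 0.0809), AS1411 replicate 2 (0.21, adjusted p = 0.0653) or control replicate 2 (0.18, adjusted p = 0.109) Pik3r4 was not called at 24 h.

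The paralogs of ATG9 and ATG2 differed in how they changed. ATG9 proteins move lipid between the leaflets of a membrane and travel on vesicles, and ATG2 proteins carry lipid to the growing autophagosome. Atg9b (chromosome 5, 24384181 to 24392143) was at 4.67, 3.07 and 4.58 CPM with AS1411 at 24 h and at 2.41, 2.28 and 1.98 with the control oligo. After 48 h it reached 12.55 and 9.19 CPM against 2.22, 2.82 and 1.40. Every AS1411 library was above every control library, and those at 48 h were far above all others. The rises were 0.89 ± 0.24 (adjusted p = 0.00888) and 2.36 ± 0.22 (adjusted p = 8.9e-08). Atg9a, the more widely expressed paralog, was at 0.10 ± 0.07 (adjusted p = 0.311) and -0.11 ± 0.07 (adjusted p = 0.219). Per kilobase of exon length, Atg9a was at 8.03 ± 0.61 CPM and Atg9b at 0.56 ± 0.06 in control cells at 24 h (SD, n = 3). With AS1411 at 48 h these levels were 8.54 ± 0.30 for Atg9a and 2.76 ± 0.60 for Atg9b (SD, n = 2). Atg9b thus remained below Atg9a in level. It shares 294 bases of exon (7.5% of its length) with Nos3 on the opposite strand, a gene not analysed here. Whether reads were counted by strand is not given in the sources used here, so reads there cannot be told apart. Atg9a shares 31.8% of its exon length with Gm29253, a processed transcript on the same strand. Reads in that stretch cannot be told apart by strand, which limits the level given for Atg9a.

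Atg2a was at 66.5, 61.3 and 64.8 CPM with AS1411 and 52.9, 52.7 and 56.3 with the control oligo at 24 h. At 48 h its values were 90.4 and 94.7 CPM against 64.7, 69.1 and 62.2. The groups did not overlap and Atg2a rose by 0.25 ± 0.05 (adjusted p = 0.00189) and 0.50 ± 0.06 (adjusted p = 6.06e-07). Atg2b was at 0.02 ± 0.06 at 24 h and fell by 0.18 on the log2 scale at 48 h (SE 0.07, adjusted p = 0.0274). That fall was not called without AS1411 replicate 2 (-0.16, adjusted p = 0.126), control replicate 2 (-0.14, adjusted p = 0.0678) or control replicate 3 (-0.17, adjusted p = 0.0602) at 48 h, nor with unscaled library sizes (-0.03, adjusted p = 0.687), upper-quartile scaling (-0.13, adjusted p = 0.103) or only the libraries compared (-0.18, adjusted p = 0.0654). WIPI proteins bind the phospholipid made by the PI3-kinase complex. Wipi1 was at 39.4, 33.0 and 36.3 CPM against 28.1, 28.1 and 28.3 at 24 h. Wipi1 then reached 47.8 and 52.4 CPM against 31.8, 33.7 and 32.1 at 48 h. The groups were apart at both times, with rises of 0.37 ± 0.07 and 0.62 ± 0.07 (adjusted p = 0.000742 and 8.89e-07). Wipi2, the more abundant per length (17.5 ± 0.34 against 6.39 ± 0.03 CPM per kb for Wipi1 in control cells at 24 h, SD, n = 3), was at 0.04 ± 0.04 at 24 h and rose by 0.24 ± 0.05 at 48 h.

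The conjugation enzymes went in both directions. ATG7 and ATG10 pass ATG12 to ATG5, and ATG16L1 joins them in the complex that directs ATG3 to lipidate ATG8 proteins. Atg12 (chromosome 18, 46730144 to 46741580) was at 62.4, 62.0 and 61.4 CPM with AS1411 and 51.2, 47.6 and 47.9 with the control oligo at 24 h. Atg12 was at 93.3 and 103 CPM against 59.8, 53.7 and 55.7 at 48 h. The 2 AS1411 libraries at 48 h were the highest of all 11, and the rises were 0.34 ± 0.06 (adjusted p = 0.000221) and 0.80 ± 0.06 (adjusted p = 2.34e-09). Atg5, whose product is joined to ATG12, did not rise with it: it was at -0.01 ± 0.06 at 24 h and fell by 0.32 on the log2 scale at 48 h (SE 0.07, adjusted p = 0.000429), from 46.7 to 52.1 CPM to 38.5 and 40.2. Atg10 was at 2.27, 2.26 and 2.68 CPM with AS1411 at 24 h and 2.41, 2.28 and 2.28 with the control oligo. By 48 h Atg10 was at 1.71 and 1.37 CPM against 2.28, 2.39 and 2.29. The groups overlapped at 24 h (0.06 ± 0.19) and were apart at 48 h (-0.58 ± 0.22, adjusted p = 0.0339). The 48 h call of Atg10 was lost without AS1411 replicate 2 (-0.45, adjusted p = 0.191) or any control library of that time (-0.59, -0.55 and -0.59, adjusted p = 0.0518, 0.0668 and 0.0523 without replicates 1, 2 and 3), with the DESeq2 Wald test (adjusted p = 0.116), with unscaled library sizes (-0.43, adjusted p = 0.109), with upper-quartile scaling (-0.53, adjusted p = 0.0528) and with only the libraries compared (-0.58, adjusted p = 0.0783).

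Atg16l2, a paralog of Atg16l1, was at 21.5, 18.6 and 21.3 CPM against 15.2, 16.9 and 16.1 at 24 h. At 48 h Atg16l2 was at 23.8 and 18.8 CPM against 15.5, 13.8 and 15.6. AS1411 libraries were higher at both times, by 0.35 ± 0.10 (adjusted p = 0.0111) and 0.52 ± 0.11 (adjusted p = 0.000468). The 24 h call was lost without AS1411 replicate 1 (0.32, adjusted p = 0.0554), AS1411 replicate 3 (0.32, adjusted p = 0.054) or control replicate 1 (0.32, adjusted p = 0.0566). Atg16l1 itself, the more abundant of these paralogs per length (6.21 ± 0.32 against 1.90 ± 0.10 CPM per kb in control cells at 24 h, SD, n = 3), was at 0.06 ± 0.06 at 24 h and 0.36 ± 0.06 higher at 48 h. Atg7, which activates both ATG12 and ATG8, rose by 0.34 ± 0.07 at 24 h and was at 0.07 ± 0.08 at 48 h (adjusted p = 0.463). Atg3 was at -0.08 ± 0.04 and -0.05 ± 0.05 (adjusted p = 0.177 and 0.354). ATG4 proteases trim ATG8 proteins before conjugation and release them afterwards. The 4 tested did not pass the threshold at 48 h (0.10 ± 0.13 for Atg4a, 0.09 ± 0.06 for Atg4b, -0.19 ± 0.12 for Atg4c and 0.07 ± 0.10 for Atg4d, with unadjusted p from 0.135 to 0.491), and at 24 h Atg4c alone rose (0.29 ± 0.11, adjusted p = 0.0439). This call was lost without AS1411 replicate 2 (0.24, adjusted p = 0.156), AS1411 replicate 3 (0.26, adjusted p = 0.145) or any control library of that time (0.32, 0.30 and 0.28, adjusted p = 0.0768, 0.0946 and 0.099), by DESeq2 (adjusted p = 0.104) and with no filter on low counts (adjusted p = 0.0509). Reads of Atg4a and of its copy Atg4a-ps could be confused. Atg4d shares 19.3% of its exon length with Kri1 on the opposite strand, which had 4606 reads in all against 3951.

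Among the ATG8 proteins, Map1lc3b rose most and the most abundant, Gabarap, was not called higher at either time. Per kilobase of exon length the order in control cells at 24 h was Gabarap (217 ± 6.97 CPM per kb), Map1lc3a (60.8 ± 3.25), Gabarapl1 (33.2 ± 0.05), Map1lc3b (9.74 ± 0.40) and Gabarapl2 (8.40 ± 0.17, SD, n = 3 each). Library values of the neighbours in this order did not overlap at that time. The exon length of Map1lc3b, 7517 bases, includes all annotated isoforms, so its level per kilobase would be higher for a shorter transcript.

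Map1lc3b (chromosome 8, 121590361 to 121598760), which encodes the LC3B protein used to mark autophagosomes, was at 92.7, 91.2 and 90.6 CPM with AS1411 at 24 h and 73.8, 69.9 and 75.9 with the control oligo. Map1lc3b was at 119.6 and 123.2 CPM against 79.5, 78.6 and 84.3 at 48 h. No libraries of the treatments overlapped, and Map1lc3b rose by 0.32 ± 0.05 (adjusted p = 5.7e-05) and 0.59 ± 0.05 (adjusted p = 1.41e-08). Map1lc3a was at 86.7, 80.9 and 83.8 CPM against 73.0, 74.9 and 67.5 at 24 h. At 48 h Map1lc3a was at 82.6 and 77.3 CPM against 62.0, 52.9 and 65.0. It rose by 0.22 ± 0.06 (adjusted p = 0.0152) and 0.41 ± 0.07 (adjusted p = 9.52e-05), and the call at 24 h was lost without AS1411 replicate 1 (0.20, adjusted p = 0.0735) or control replicate 3 (0.19, adjusted p = 0.0644). Control libraries of Map1lc3a were lower at 48 h than at 24 h, and its AS1411 libraries of both times overlapped.

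Gabarapl1 was at 73.4, 75.1 and 79.1 CPM against 66.7, 66.9 and 66.8 at 24 h. At 48 h Gabarapl1 was at 72.8 and 78.6 CPM against 61.9, 67.6 and 65.8. It rose by 0.18 ± 0.05 and 0.21 ± 0.06 (adjusted p = 0.0102 and 0.00315), and shares 28.3% of its exon length with a processed transcript on the opposite strand that had 44 reads in all. These calls were lost without AS1411 replicate 3 at 24 h (0.15, adjusted p = 0.0655) and without AS1411 replicate 2 at 48 h (0.15, adjusted p = 0.0836), respectively. Gabarapl2 was at 21.5, 18.3 and 19.8 CPM against 19.1, 19.6 and 19.9 at 24 h, where the groups overlapped (0.03 ± 0.08). At 48 h Gabarapl2 was at 20.4 and 22.2 CPM against 16.96, 17.7 and 18.6, a rise of 0.26 ± 0.09 (adjusted p = 0.0201). Without AS1411 replicate 2 (0.19, adjusted p = 0.184) or control replicate 1 (0.23, adjusted p = 0.0598), by DESeq2 (adjusted p = 0.0548) or with only the libraries compared (adjusted p = 0.0599), this rise did not pass.

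Gabarap was at 431, 430 and 435 CPM with AS1411 and 415, 395 and 392 with the control oligo at 24 h. Gabarap was at 391 and 388 CPM against 448, 392 and 433 at 48 h. The AS1411 libraries were the higher ones at 24 h and the lower ones at 48 h, by small margins. Its log2 fold change was 0.11 ± 0.04 at 24 h (adjusted p = 0.0709) and -0.12 ± 0.05 at 48 h (adjusted p = 0.0405). The 24 h value passed without control replicate 2 or 3 of 48 h (both 0.11, adjusted p = 0.00673 and 0.0452), with unscaled library sizes (0.19, adjusted p = 0.00605), with upper-quartile scaling (0.14, adjusted p = 0.0286) and with only the libraries compared (0.12, adjusted p = 0.000478). The 48 h call of Gabarap was lost in 8 of the 11 fits that leave out 1 library, where it lay between -0.14 and -0.08, as well as with upper-quartile scaling (-0.07) and with only the libraries compared (-0.13), and the value turned to 0.02 with unscaled library sizes. As a share of the family's summed CPM per kb, Gabarap made up 61.7 to 61.9% with AS1411 and 68.7 to 70.6% with the control oligo at 48 h. Map1lc3b made up 4.64 to 4.81% and 3.07 to 3.39%, and Map1lc3a 19.2 to 20.4% and 14.5 to 16.1%.

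**Figure D3:**
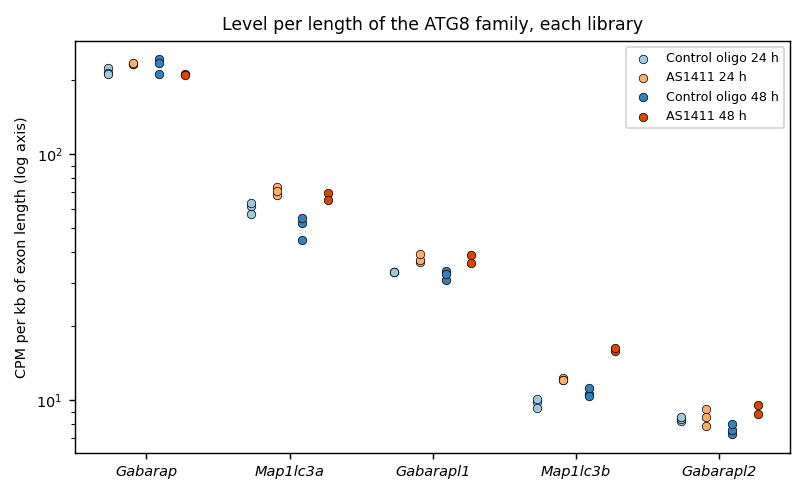
Level of the 5 ATG8 family genes in CPM per kilobase of exon length, on a log axis, with 1 point per library coloured by group. Gabarap is highest in every library (means of 211 to 234), and the AS1411 libraries at 48 h stand above the other groups for Map1lc3b (15.9 and 16.4 against 10.5 to 11.2 in control cells).

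Of the 5 cargo receptors 4 rose at 48 h (80%, against 29.4% of all genes). At 24 h 2 of them had risen (40%, against 13.1% of all genes). Nbr1 (chromosome 11, 101552149 to 101581951), a receptor for ubiquitinated cargo, was at 113, 117 and 116 CPM with AS1411 and 91.7, 95.6 and 96.4 with the control oligo at 24 h. Nbr1 was at 190 and 212 CPM against 105, 89.6 and 111 at 48 h. The AS1411 libraries lay above the control libraries at both times, by 0.29 ± 0.07 (adjusted p = 0.00436) and 0.98 ± 0.07 (adjusted p = 1.74e-08). Sqstm1 (chromosome 11, 50199366 to 50210827) encodes sequestosome, which links ubiquitinated proteins to LC3 and is itself degraded by autophagy. Its levels were 363, 366 and 373 CPM with AS1411 and 398, 386 and 377 with the control oligo at 24 h. At 48 h they were 703 and 816 CPM against 496, 541 and 458. Sqstm1 was slightly lower in the AS1411 libraries at 24 h, without passing (-0.08 ± 0.06, adjusted p = 0.372; 0.00 with unscaled library sizes), and rose at 48 h (0.61 ± 0.06, adjusted p = 1.4e-06). In the annotation, 17.3% of its exon length is shared with Mrnip on the opposite strand, which had 464 reads in all against 84408.

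Optn, the gene of the receptor optineurin, was at 28.0, 25.9 and 26.7 CPM against 23.7, 24.7 and 23.4 at 24 h. At 48 h Optn was at 36.6 and 38.0 CPM against 22.6, 18.8 and 23.6. The groups were apart at both times, but only the 48 h difference passed (0.17 ± 0.08, adjusted p = 0.131, and 0.78 ± 0.09, adjusted p = 3.41e-07). The 24 h value of Optn passed without control replicate 2 at 48 h (0.17, adjusted p = 0.0451), with unscaled library sizes (0.24, adjusted p = 0.0348) and with only the libraries compared (0.18, adjusted p = 0.0258). Calcoco1, a receptor for the endoplasmic reticulum and Golgi, was at 45.5, 42.9 and 46.4 CPM against 34.8, 33.6 and 32.6 at 24 h. At 48 h Calcoco1 was at 58.5 and 57.9 CPM against 40.1, 38.0 and 41.5. It rose by 0.42 ± 0.06 (adjusted p = 4.38e-05) and 0.55 ± 0.06 (adjusted p = 5.22e-07). Tax1bp1, also a ubiquitin-binding receptor, was at -0.11 ± 0.04 and -0.01 ± 0.04 (adjusted p = 0.0531 and 0.864). Epg5, which tethers autophagosomes to late endosomes and lysosomes, was at 0.15 ± 0.09 at 24 h and rose by 0.44 ± 0.09 at 48 h (46.5 and 47.5 CPM against 32.5 to 36.7).

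**Figure D4:**
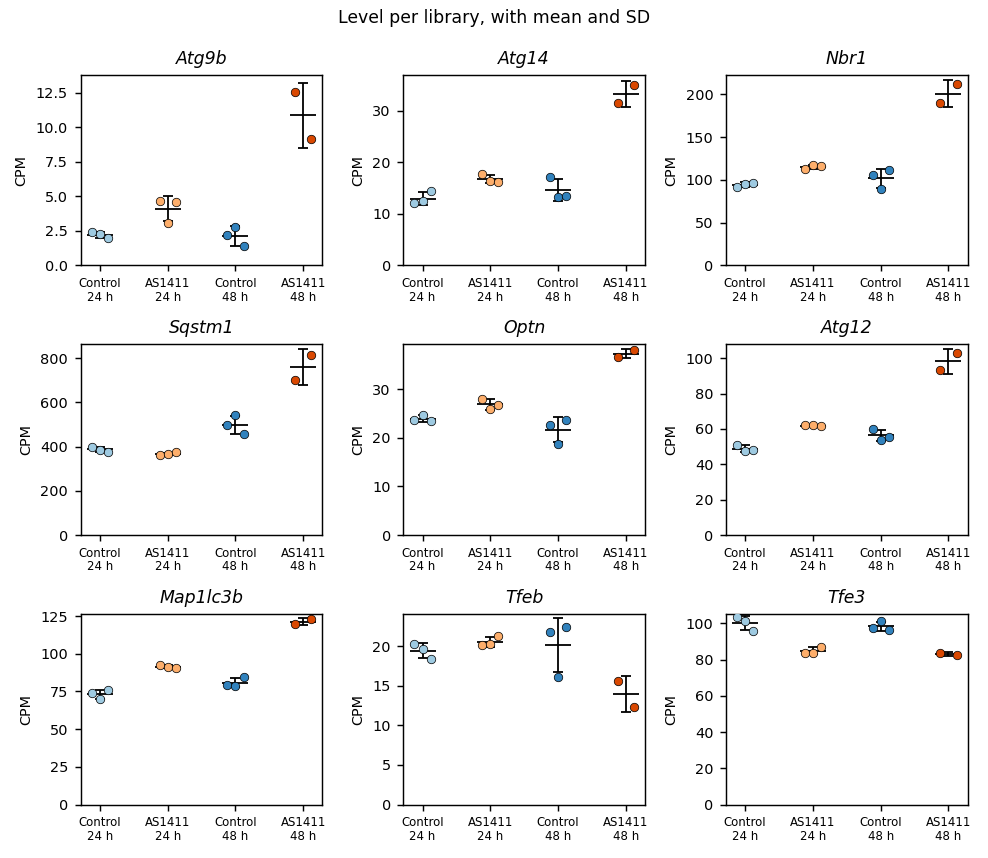
CPM of 9 members in each library (points) with the group mean and SD (bars), on axes that start at 0. The AS1411 libraries at 48 h stand above all others for Atg9b, Atg14, Nbr1, Sqstm1, Optn, Atg12 and Map1lc3b, those of Tfeb (12.3 and 15.6 CPM) stand below all others, and Tfe3 is lower with AS1411 at both times.

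The transcripts of the MiT/TFE factors were level or lower with AS1411: Tfe3 fell at both times, Tfeb fell at 48 h and Mitf did not pass. Tfe3 (chromosome X, 7762560 to 7775202) was at 83.9, 83.6 and 87.1 CPM with AS1411 and 104, 101 and 95.97 with the control oligo at 24 h. At the later time it was at 83.8 and 82.5 CPM against 97.3, 101 and 96.6. All AS1411 libraries were below all control libraries, by the same amount at each time (-0.24 ± 0.04, adjusted p = 0.000514, and -0.24 ± 0.05, adjusted p = 0.000395). With unscaled library sizes the 48 h value was -0.10 (adjusted p = 0.101). Tfeb (chromosome 17, 47737030 to 47792419) was at 20.1, 20.2 and 21.3 CPM against 20.3, 19.7 and 18.3 at 24 h, where the groups overlapped (0.08 ± 0.11). At 48 h Tfeb was at 15.6 and 12.3 CPM against 21.7, 16.2 and 22.4. It fell by 0.52 on the log2 scale (SE 0.13, adjusted p = 0.00216), and control replicate 2, the library that stood apart, was the control nearest to the AS1411 level. Mitf was at 6.503, 5.48 and 5.94 CPM against 6.98, 6.31 and 6.97 at 24 h. At 48 h Mitf was at 4.85 and 4.56 CPM against 6.37, 5.14 and 6.25. The AS1411 libraries were lower at 48 h, but Mitf did not pass (-0.17 ± 0.13, adjusted p = 0.35, and -0.33 ± 0.15, adjusted p = 0.0772). It passed at 48 h without control replicate 2 (-0.41, adjusted p = 0.0282). Per kilobase the order in control cells at 24 h was Tfe3 (10.8 ± 0.43 CPM per kb), Tfeb (3.43 ± 0.17) and Mitf (1.09 ± 0.06, SD, n = 3), with no overlap of libraries.

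MiT/TFE factors bind the CLEAR element, built around CACGTG, the core that they share with other E-box factors. RefSeq promoter windows on GRCm38.p6 (250 bases before to 50 after a start) were found for 36 of the 44 members, 45 windows in all. CACGTG, which reads the same on both strands, was in 4 of the 45 windows (8.89%), against 7.15% of all 32851 windows, or in 4 of 36 members (11.1%) against 8.09% of all genes with a window. Those 4 windows belong to Atg3, Atg5, Atg7 and Atg14. The longer form TCACGTGA, which contains CACGTG, was in 1 window (2.22%), against 0.974% of all. Of the members with a window, 16 rose at 48 h and 1 of them, Atg14, held the motif at the RefSeq start site of its window. The stretches before the start of the others are shown to set the motif (capitals, 5′ to 3′ on the gene's strand) beside their values:
Atg3, chr16:45158700-45158798, plus strand: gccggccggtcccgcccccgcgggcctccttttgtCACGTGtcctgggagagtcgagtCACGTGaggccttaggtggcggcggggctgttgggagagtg
Atg5, chr10:44268290-44268338, plus strand: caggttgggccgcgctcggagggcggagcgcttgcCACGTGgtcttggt
Atg7, chr6:114670929-114671004, plus strand: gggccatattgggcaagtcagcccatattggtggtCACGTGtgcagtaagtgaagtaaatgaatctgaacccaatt
Atg3 holds the motif at 94 and 71 bases before its start, the latter in the longer form, and was at -0.05 ± 0.05 at 48 h. Atg5, with the motif 14 bases before its start, fell at 48 h, and Atg7, with the motif at 132 bases, rose at 24 h and not at 48 h. These starts are those of the RefSeq windows. The windows of Atg14 (47568385 to 47568684) and Atg7 (114670846 to 114671145) lie inside the annotated genes, whose outermost starts are at 47570649 and 114643097. A match describes letters in a window and not a bound site.

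Genes outside the members that act in the same pathway were counted from lists. These were chosen by knowledge of the pathway, with earlier results of these data known. Of 26 tested CLEAR network genes that TFEB is known to activate, 10 rose and 3 fell at 24 h (38.5% and 11.5%, against 13.1% and 16.7% of all genes). At 48 h 19 rose and 4 fell (73.1% and 15.4%, against 29.4% and 28.5% of all genes). Their log2 fold changes at 48 h ran from -0.51 to 2.04 with a median of 0.28, and 16 to 21 of them rose over the alternatives. The genes named from each list are those with the smallest adjusted p at 48 h, not those with the largest change. The sialidase Neu1 rose by 0.97 ± 0.065 (88.4 and 98.5 CPM against 46.5 to 50.2) and the chloride transporter Clcn7 by 0.58 ± 0.05 (130 and 136 CPM against 87.3 to 92.2). The protease Ctsb fell by 0.51 on the log2 scale (SE 0.04), from 851 to 906 CPM to 614 in both AS1411 libraries. Of 16 other core factors 8 rose and 1 fell at 48 h (50% and 6.25%, against 29.4% and 28.5% of all genes). Log2 fold changes of the 16 at that time ran from -0.49 to 2.74. The WIPI relative Wdr45 rose by 0.90 ± 0.07, Zfyve1, whose product marks sites of autophagosome formation, by 0.97 ± 0.08, and Trp53inp2, which binds ATG8 proteins, by 1.03 ± 0.10. At 24 h 4 of the 16 rose and 0 fell (25% and 0%, against 13.1% and 16.7% of all genes), and 4 to 7 and 0 to 1 over the alternatives.

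Of 14 genes of autophagosome-lysosome fusion 8 rose and 2 fell at 48 h (57.1% and 14.3%, against 29.4% and 28.5% of all genes), led by Tecpr1 (0.80 ± 0.07), Stx7 (0.49 ± 0.06) and Vps18 (0.42 ± 0.06). Without AS1411 replicate 2 at 48 h 5 of them rose. The count that fell was 1 without AS1411 replicate 1 or control replicate 1 of 48 h, and 0 to 2 over all alternatives. At 24 h 6 rose and 1 fell (42.9% and 7.14%, against 13.1% and 16.7% of all genes), and 5 to 11 and 0 to 1 over the alternatives. Of 18 receptors for single organelles 6 rose and 6 fell at 48 h (33.3% each), shares near those of all genes. Log2 fold changes of the 18 at 48 h ran from -0.59 to 1.74. At 24 h 2 rose and 3 fell (11.1% and 16.7%, again near the shares of all genes), and 0 to 6 and 1 to 3 over the alternatives. Retreg3, a receptor for the endoplasmic reticulum, rose by 0.45 ± 0.055, and the mitochondrial receptors Phb2 and Fkbp8 fell by 0.42 and 0.27 on the log2 scale (SE 0.05 each). Without AS1411 replicate 2, 3 of these 18 rose at 48 h. Of 19 kinases, phosphatases and Rag factors that act on ULK1 or TFEB, 7 rose and 7 fell at 48 h (36.8% each, against 29.4% and 28.5% of all genes; 4 rose without AS1411 replicate 2). Their log2 fold changes at 48 h ran from -0.97 to 2.16, and the genes named are those with the smallest adjusted p. At 24 h 2 of these rose and 3 fell (10.5% and 15.8%, against 13.1% and 16.7% of all genes), and 1 to 7 and 1 to 4 over the alternatives. The mTOR complex genes Rptor and Mtor fell by 0.97 (SE 0.07) and 0.52 (SE 0.07) on the log2 scale. From 24 h to 48 h Mtor was at -0.07 ± 0.07 in AS1411 cells and rose by 0.36 ± 0.06 in control cells. Rptor was at 39.5 and 39.7 CPM with AS1411 and 72.1 to 84.8 with the control oligo. Gsk3b, a kinase that phosphorylates TFEB, fell by 0.41 on the log2 scale (SE 0.05).

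Over time, autophagy genes were often higher at 48 h than at 24 h with either oligo. In control cells 14 members rose and 4 fell (11.6% and 13.2% of all genes), and in AS1411 cells 18 rose and 8 fell (24.5% and 24.6%). The counts in control cells rest on single libraries: without control replicate 2 at 24 h, 8 rose and 1 fell, and without control replicate 1 or 3 at 24 h or control replicate 3 at 48 h, 2 fell. In AS1411 cells 4 fell without either AS1411 library of 48 h, and 5 without AS1411 replicate 3 of 24 h. Those that rose with both were Atg101, Atg12, Atg13, Atg2a, Calcoco1, Epg5, Map1lc3b, Sqstm1, Tax1bp1, Ulk1, Ulk2 and Wipi1. Among these, the control calls of Atg101, Atg12, Map1lc3b and Wipi1 were each lost without at least 1 library, and that of Atg101 in AS1411 cells without AS1411 replicate 2 of 48 h (0.21, adjusted p = 0.0599). Sqstm1 rose by 0.36 ± 0.06 in control cells and by 1.05 ± 0.06 in AS1411 cells. Ulk1 rose by 0.37 ± 0.05 and 0.53 ± 0.06. Members that rose in AS1411 cells and did not pass in control cells were Atg14 (0.99 ± 0.10), Atg9b (1.39 ± 0.20), Nbr1 (0.80 ± 0.07), Optn (0.47 ± 0.08), Becn1 (0.24 ± 0.05) and Rb1cc1 (0.13 ± 0.05). In control cells these genes were between -0.14 and 0.17, and whether their change over time differed between the oligos is the difference tested next. The call of Rb1cc1 was lost without AS1411 replicate 2 (0.11) or 3 (0.13) of 24 h, or AS1411 replicate 1 (0.10) or 2 (0.14) of 48 h. Atg2b (0.19 ± 0.06) and Atg9a (0.20 ± 0.07) rose in control cells alone. In AS1411 cells they were at -0.003 ± 0.07 and -0.01 ± 0.07. Atg16l1 (-0.27 ± 0.06), Map1lc3a (-0.26 ± 0.07) and Wipi2 (-0.13 ± 0.04) fell in control cells and did not pass in AS1411 cells (0.03, -0.07 and 0.06). Of these control calls, all but that of Atg16l1 were lost without at least 1 library. Atg10 (-0.64 ± 0.22), Tfeb (-0.55 ± 0.13), Atg4c (-0.43 ± 0.12) and Atg5 (-0.32 ± 0.07) fell in AS1411 cells and did not pass in control cells. The same held for Atg7 (-0.27 ± 0.08), Ambra1 (-0.21 ± 0.08) and Gabarap (-0.15 ± 0.05). Ulk3 fell in both, by 0.35 on the log2 scale in control cells (SE 0.12) and 0.48 in AS1411 cells (SE 0.13). Of these falls, all but those of Tfeb and Atg5 were lost in at least 1 alternative.

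The AS1411 effect at 48 h differed from that at 24 h for 15 members, 11 upward and 4 downward, in the test of the difference itself (13.4% and 14.1% of all genes). The upward differences were largest for Atg9b (1.47 ± 0.34, adjusted p = 0.00381), Atg14 (0.82 ± 0.15, adjusted p = 0.000518), Nbr1 (0.69 ± 0.10, adjusted p = 0.000105), Sqstm1 (0.68 ± 0.09, adjusted p = 5.24e-05), Optn (0.62 ± 0.12, adjusted p = 0.000726) and Atg12 (0.46 ± 0.08, adjusted p = 0.000414). Among the 4 called downward, Tfeb had the largest difference (-0.60 ± 0.17, adjusted p = 0.0144), which was not called without AS1411 replicate 2 at 48 h (-0.46). Atg10 was at -0.64 ± 0.29 and did not pass (adjusted p = 0.113). The 6 genes grouped with the ULK complex did not pass this test (-0.12 to 0.18, with an unadjusted p of 0.0494 for Ulk1). The count of upward differences was 7 without AS1411 replicate 2 at 48 h or control replicate 3 at 24 h, and the downward count was 2 without AS1411 replicate 1 at 48 h. With unscaled library sizes 15 members differed upward and 1 downward.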

How the data were processed

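The authors deposited raw read counts per gene for 11 libraries, and these counts were used throughout. Per the submitters' processing notes, bcl2fastq, cutadapt, STAR, HTSeq and DESeq2 were used with build GRCm38; for versions, settings and strand use, nothing is given in the sources used here. A second deposited table of normalized values was not used. Of 15022 identifiers 14973 matched GENCODE M21, and symbols, positions and summed exon lengths come from it. Libraries were grouped by their titles. Whether replicates came from separate cultures is not in the labels: p-values describe the spread among these libraries, and that spread may be technical.

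Genes were filtered with filterByExpr (13040 left), scaled by TMM and fitted in 1 edgeR quasi-likelihood model with 1 coefficient per group over all libraries (R 4.3.3 with edgeR 4.0.16, robust estimation, 7 residual degrees of freedom). Tests were two-sided, with Benjamini-Hochberg adjustment over all genes and a threshold of 0.05. The SE is the log2 fold change divided by the square root of F. CPM use TMM-scaled library sizes. The model was tested on simulated counts. Alternatives were RLE, upper-quartile or no scaling, no filter, DESeq2 1.42.0, only the libraries compared, a replicate block, a threshold of 0.01 and leaving out each library in turn.

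Members and lists were chosen with earlier results of these data known. Values in every library are given for members past the threshold with a log2 fold change of at least 0.5 at 24 h, at 48 h or in their difference, for the MiT/TFE factors and for the ATG8 proteins. Of each pathway list, the 3 genes with the smallest adjusted p at 48 h are named.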

Additional observations from a re-analysis of the deposited data

Results flagged for a closer look

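The AS1411 effect differed between 48 h and 24 h for 15 members by the test of that difference in the edgeR model (adjusted p under 0.05). Given as the 48 h minus the 24 h log2 fold change, the upward differences were 1.47 for Atg9b, 0.82 for Atg14, 0.69 for Nbr1, 0.68 for Sqstm1, 0.62 for Optn, 0.46 for Atg12, 0.30 for Atg16l1, 0.26 for Map1lc3b, 0.25 for Atg2a, 0.20 for Wipi2 and 0.19 for Becn1. The downward differences were -0.60 for Tfeb, -0.49 for Atg4c, -0.32 for Atg5 and -0.23 for Gabarap. Across the alternatives, 7 of the 15 calls held in every one and 8 were lost in at least 1. Those of Becn1, Atg4c, Wipi2 and Atg2a were the ones lost most often. Becn1 was not called without AS1411 replicate 1 (0.20) or 2 (0.16) at 24 h, AS1411 replicate 1 (0.20) or 2 (0.16) at 48 h, control replicate 1 (0.19) or 3 (0.15) at 24 h, or control replicate 1 (0.18) or 3 (0.19) at 48 h. Atg4c was not called without AS1411 replicate 2 (-0.43) or 3 (-0.45) at 24 h, AS1411 replicate 1 at 48 h (-0.45), control replicate 2 (-0.49) or 3 (-0.48) at 24 h, or control replicate 3 at 48 h (-0.46). Wipi2 was not called without AS1411 replicate 2 at 24 h (0.18) or 48 h (0.11), control replicate 1 (0.19), 2 (0.20) or 3 (0.17) at 24 h, or control replicate 1 at 48 h (0.17). Atg2a was not called without AS1411 replicate 2 at 24 h (0.22) or 48 h (0.20), or control replicate 3 at 24 h (0.21) or 48 h (0.21). Atg16l1 was not called without AS1411 replicate 2 at 48 h (0.24) or control replicate 3 at 24 h (0.25), Atg5 without AS1411 replicate 1 at 48 h (-0.30), Tfeb without AS1411 replicate 2 at 48 h (-0.46), and Gabarap with unscaled library sizes (-0.17). Unscaled sizes also lost Atg5 (-0.25, adjusted p = 0.0549) and Atg4c (-0.42, adjusted p = 0.0701). DESeq2 lost Becn1 (0.18), Atg4c (-0.49), Atg2a (0.24) and Wipi2 (0.19). Becn1 was also lost with RLE scaling (0.18, adjusted p = 0.0515) and with no filter on low counts (0.18, adjusted p = 0.064).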

How the results depend on the processing

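The counts of members that rose with AS1411 stayed within 1.5 times of the main count in every alternative run: 15 to 23 at 24 h and 20 to 23 at 48 h when 1 library was left out, and 13 to 24 and 21 to 29 otherwise. Counts of members that fell are small and moved more. When 1 library was left out they were 1 to 2 at 24 h and 3 to 6 at 48 h. The differences between times numbered 7 to 13 upward and 2 to 5 downward, the changes over time in control cells 8 to 16 upward and 1 to 4 downward, and those in AS1411 cells 16 to 18 upward and 4 to 9 downward. With unscaled library sizes 2 members fell at 48 h, 1 differed downward between times, and 2 and 4 fell over time in control and AS1411 cells. With upper-quartile scaling 3 fell at 48 h. DESeq2 gave 2 falls over time in control cells. With only the libraries compared, 2 fell at 24 h, 3 at 48 h and 2 over time in control cells. At an adjusted p under 0.01, 3 fell at 48 h, 7 and 0 differed upward and downward between times, 7 rose and 2 fell over time in control cells, and 5 fell over time in AS1411 cells. Values that changed sign, none past the threshold after the change, were Sqstm1 at 24 h (0.0029) and Gabarap at 48 h (0.0216) with unscaled sizes, Gabarapl2 at 24 h without AS1411 replicate 1 (-0.0314, with 0.0811 the highest when 1 library was left out) and Atg10 at 24 h without AS1411 replicate 3 (-0.0346, with 0.1032 the highest). The cause was not tested. The longer motif TCACGTGA was in 2.78% of the members with a window, against 11.1% for CACGTG, of which it is a subset.

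Deviations of same-numbered libraries from their group means correlated at -0.05 to 0.21 over 15 pairs (median 0.02). Those of libraries with other numbers correlated at -0.21 to 0.12 over 30 pairs (median -0.02). The highest value was that of AS1411 and control replicate 2 at 48 h (0.208). The replicate numbers were not taken as pairs. With a replicate block, 22 members rose and 1 fell at 24 h, and 22 rose and 5 fell at 48 h. The block lost the call of Atg10 at 48 h (-0.56, adjusted p = 0.0597) and of Ambra1 over time in AS1411 cells (-0.18, adjusted p = 0.0717), and Gabarap passed at 24 h (0.11, adjusted p = 0.0483). Depth limits the low genes: Atg9b and Atg10 were at 1 to 13 CPM.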
